A study of Mus musculus with 10 samples.

Results

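The genes described here encode the signalling chain of the B cell receptor, from the receptor's own cytoplasmic chains to the enzymes and adaptors that carry or restrain its signal. They are a hand-picked set of 33 genes, taken by symbol from the 47719 gene identifiers in the files through the GENCODE M21 annotation of the GRCm38 mouse genome, and all 33 were found. Their levels were compared between 5 libraries of IgM plasma cells and 5 libraries of IgG1 plasma cells from mouse spleen. All 10 libraries came from one experimental scheme: congenic donor B cells of the S1PR2-CreERT2 Ai14 B1-8germ genotype were given to wild-type hosts, NP-CGG with alum was injected on day 0, tamoxifen followed on day 5 and again on day 6, and donor tdTomato+ plasma cells were sorted on day 10. S1PR2-CreERT2 is a tamoxifen-activated Cre recombinase driven by S1pr2, a gene of germinal centre B cells, Ai14 is a Cre-dependent tdTomato reporter, and B1-8germ supplies a heavy chain that favours binding of the NP hapten. Both groups carried every one of these alleles and treatments, and the only difference the labels name is the antibody class on which the cells were sorted. No batch is given, so the class and a batch, if there was one, cannot be told apart. The reporter marks cells that had the Cre at the time of tamoxifen, and recombination outside germinal centres was not assessed here. Age and sex of the mice, and whether each library came from its own animal or from pooled animals, are not stated, so the p-values measure the spread between libraries, which may be technical.

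In a B cell, antigen binding to membrane immunoglobulin leads Lyn and related Src-family kinases to phosphorylate tyrosine motifs in Cd79a and Cd79b, which then recruit Syk. Syk and Btk act through the scaffold Blnk on the phospholipase Plcg2, whose products release calcium and activate protein kinase C, while PI3 kinase builds a membrane lipid that holds Btk and other enzymes in place. Phosphatases, the kinase Csk, ubiquitin ligases and inhibitory adaptors damp these steps. Plasma cells turn most of their immunoglobulin into secreted antibody, and in mice surface receptor is better known from IgM than from IgG plasma cells.

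The IgM libraries held 26790000 to 31100000 and the IgG1 libraries 26270000 to 37730000 fragments, read back from the smallest steps in the FPKM values (fragments scaled to transcript length and library size) with a fragment length of 200 bases assumed. Genes above 0 numbered 15121 to 15800 in IgM and 13286 to 13961 in IgG1 libraries, without overlap. The more abundant of the transcripts Ighm and Ighg1 followed the label in all 10 libraries. Ighm averaged 85377 FPKM in IgM and 1170.3 FPKM in IgG1 libraries, and Ighg1 averaged 14974 and 93807 FPKM. Ighg1 was still present in every IgM library, at 9465 to 19243 FPKM, while Ighm stood at 1110 to 1306 FPKM in IgG1 libraries. The source of Ighg1 transcripts in IgM libraries, and its part in the differences below, was not tested. Plasma cell genes such as Sdc1 (284 and 258 FPKM), Prdm1 (53.5 and 29.2 FPKM) and Xbp1 (2928 and 3194 FPKM) were present in both groups, and Pax5, the defining factor of B cells before plasma cell differentiation, had group means of 0.0704 and 0.05997 FPKM. Some marker sums moved with the groups. Below, a marker counted as above 0 in a group if it was above 0 in any library of that group. The 15 mature B cell markers, all above 0, summed to 214 to 367 FPKM in IgM and 196 to 208 FPKM in IgG1 libraries, with IgM replicate 3 the highest; without Ighd, a heavy chain gene that ran from 1.43 to 119 FPKM in IgM libraries, the other 14 summed to 208 to 248 and 195 to 205 FPKM. The most abundant of them, Cd37 and Ms4a1, averaged 92.3 and 111 FPKM, and 62.9 and 42.9 FPKM. Of the 11 plasma cell markers 9 were lower in IgG1 cells and 1, Xbp1, was higher, where 20.2% of all genes tested were lower and 18.1% higher. They summed to 42220.3 to 46607 FPKM in IgM and 25133 to 28457 FPKM in IgG1 libraries, and without Jchain to 5882 to 6325 and 5255 to 5704 FPKM. The 10 germinal centre markers summed to 151 to 180.3 FPKM in IgM and 137 to 142 FPKM in IgG1 libraries. The 16 immediate early genes, which respond within minutes to many stimuli, handling of cells included, summed to 521 to 769 FPKM in IgM and 289 to 378 FPKM in IgG1 libraries, and 8 of the 11 tested were lower in IgG1 cells, against the same 20.2% of all genes. Markers of T cells (13 of 14 above 0 in IgM and 8 of 14 in IgG1 libraries) summed to 3.97 to 11.6 FPKM in IgM and 2.31 to 4.16 FPKM in IgG1 libraries, and markers of NK cells (4 of 7 and 2 of 7 above 0) to 0.8495 to 2.07 FPKM in IgM and 1.598 to 3.12 FPKM in IgG1 libraries. Erythroid and platelet markers (6 of 8 and 7 of 8 above 0) summed to 0.0764 to 5.603 FPKM in IgM and 2.11 to 5.82 FPKM in IgG1 libraries. Myeloid markers (8 of 12 and 9 of 12 above 0) summed to 92.7 to 201 FPKM in IgM and 94.8 to 137 FPKM in IgG1 libraries, nearly all of it Ly6c2, which plasma cells also express, while Lyz2 averaged 1.09 and 1.62 FPKM. The part of these cells and genes in the differences below was not tested. Where a level differs between these bulk samples, fewer cells that express the gene and less RNA in each cell cannot be told apart.

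All 33 genes reached the minimum mean of 1 FPKM over the 10 libraries and were tested. In IgG1 against IgM plasma cells 16 of the 33 were lower, 5 were higher, and 12 did not pass an adjusted p of 0.05 (limma on log2 of FPKM + 1, two-sided, with Benjamini-Hochberg adjustment over 9900 genes). The differences between these classes were wide: 38.3% of all 9900 genes passed the same test, with 20.2% lower and 18.1% higher in IgG1 cells. Read against that, 48.5% of the receptor signalling genes were lower, and the 15.2% that were higher lie close to the background. Among the 6865 genes that averaged at least 5 FPKM, 1714 were higher and 1538 lower. Of the 29 receptor signalling genes among them 5 were higher and 15 lower. These shares are descriptions only, since earlier results of these data were known at the choice of the 33 genes. Their median log2 difference (IgG1 minus IgM, the direction of every difference below) was -0.54, against -0.05 over all genes tested. That median was -0.32 under quantile normalization (all genes 0.06), -0.33 and -0.34 with length and GC trends removed by the median or the longest transcript (all genes -0.05 and -0.06), and -0.26 with an offset of 5 FPKM (all genes -0.03). The IgM and IgG1 libraries did not overlap in 15 of the 33 genes (45.5%), against 26.3% of all genes tested. A fall of at least 1 on the log2 scale was called for Samsn1, Sh3bp2, Itpr2, Ptpn6 and Fyn, which is 5 of 33 genes against 5.09% of all genes, and none of the 33 was called higher by as much.

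The activating and restraining genes did not separate into opposite directions. Over all genes tested 20.2% were lower and 18.1% higher, with a median log2 difference of -0.05. Of 23 genes counted as activators from their textbook roles, 11 were lower (47.8%), 4 were higher (17.4%) and 8 did not pass. The median log2 difference of the 23 was -0.20. Of 6 counted as negative regulators, 2 were lower (Samsn1 and Ptpn6, 33.3%), 1 was higher (Dok3, 16.7%) and 3 did not pass (Inpp5d, Csk and Cblb). The median of the 6 was -0.30, and the call of Dok3 was lost once length and GC trends were removed. The shares called higher among activators and negative regulators lie close to that of all genes, and no class was tested as a set. Of 4 with both kinds of role, Lyn, Prkcd and Ptprc were lower and Bank1 did not pass, with a median of -0.69. The plot of all log2 differences shows activators at both ends of the scale, from Sh3bp2 to Blnk.

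**Figure D1:**
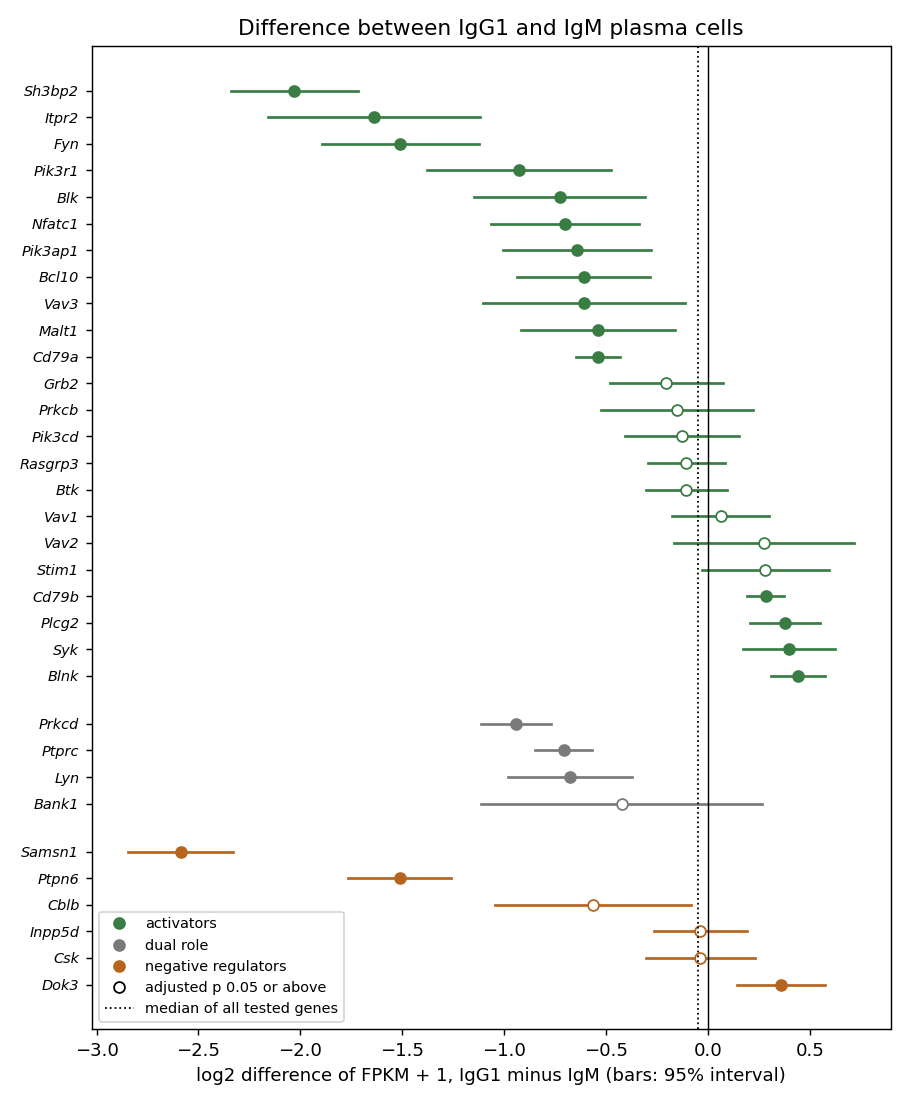
Log2 difference of FPKM + 1, IgG1 minus IgM, for the 33 receptor signalling genes (x axis), grouped as activators, genes with both roles and negative regulators; points are limma estimates from 5 libraries per class, bars are 95% intervals, open points did not pass an adjusted p of 0.05, and the dotted line is the median of all 9900 genes (-0.05). Samsn1 (-2.59) and Sh3bp2 (-2.03) lie farthest to the left, and the 5 genes called higher lie between 0.28 and 0.44.

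The transcripts of the receptor's signalling heterodimer differed in opposite directions: Cd79a was lower and Cd79b was higher in IgG1 cells, and neither gene's classes overlapped. The call of Cd79b was lost once length and GC trends were removed, as given below, and protein was not measured. Cd79a and Cd79b each carry the tyrosine motif that starts the signal, and they reach the cell surface as a pair with membrane immunoglobulin. In GRCm38 Cd79a lies on chromosome 7, 24897381 to 24902197, plus strand, and Cd79b on chromosome 11, 106311341 to 106314762, minus strand. In the IgM libraries Cd79a stood at 316, 344, 347, 313 and 328 FPKM (replicates 1 to 5, here and below). In the IgG1 libraries it stood at 215, 218, 227, 232 and 239.6 FPKM, so that every IgG1 library lay below every IgM library. The fall was 1.46-fold, from 329 ± 15.4 to 226 ± 10.1 FPKM (SD, n = 5; log2 difference -0.54, SE 0.05, adjusted p = 2.02e-07). Cd79b, the highest of the 33 genes in both classes, stood at 470.4, 452, 492, 484 and 462 FPKM in IgM libraries and at 578, 558, 549.8, 609.9 and 575 FPKM in IgG1 libraries. It rose 1.22-fold, from 472 ± 16.2 to 574 ± 23.2 FPKM (SD, n = 5; log2 difference 0.28, SE 0.04, adjusted p = 5.20e-05).

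Within single libraries the ratio of Cd79a to Cd79b, in FPKM and thus per transcript length, does not depend on the scaling between libraries. It was 0.673, 0.7601, 0.704, 0.646 and 0.7101 in IgM libraries and 0.372, 0.3905, 0.412, 0.381 and 0.416 in IgG1 libraries. The means were 0.699 ± 0.0430 and 0.394 ± 0.0193 (SD, n = 5), with no overlap. Cd79b is a short gene (longest annotated transcript 1431 bases, against 1457 for Cd79a), and short transcripts as a whole ran higher in IgG1 libraries: the median log2 difference was 0.15 over the 2470 genes with the shortest transcripts and -0.21 over the 2469 with the longest. With trends over transcript length and GC content removed, the rise of Cd79b no longer passed (0.11, adjusted p = 0.071), and the fall of Cd79a was -0.72, adjusted p = 4.01e-09.

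**Figure D2:**
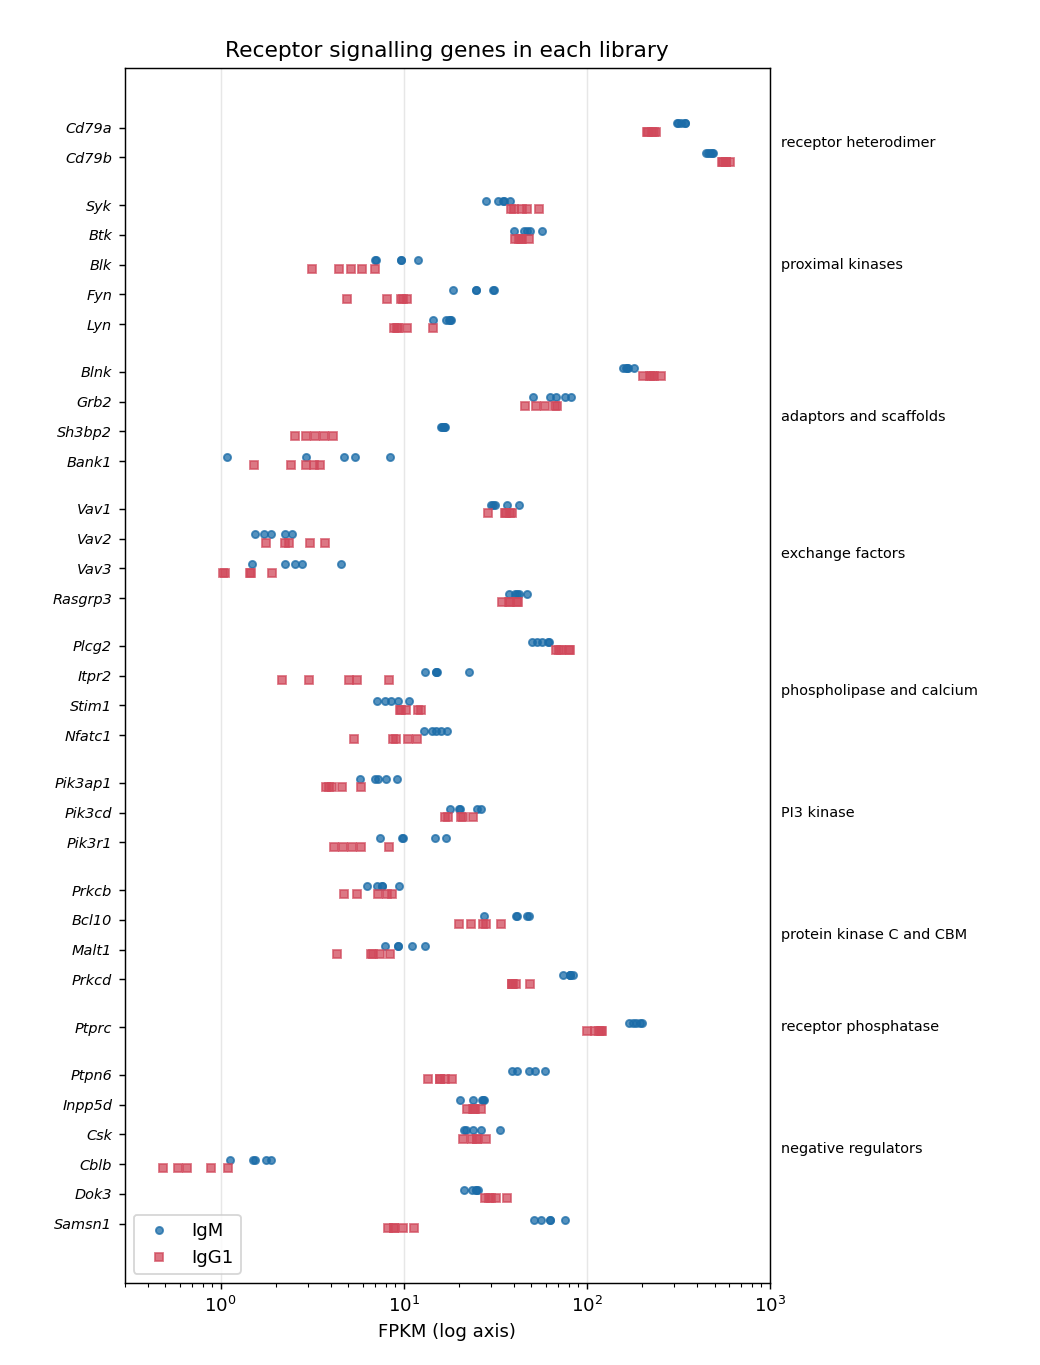
FPKM of the 33 receptor signalling genes in each of the 10 libraries (log x axis), by role from the receptor chains (top) to the negative regulators (bottom); circles are IgM and squares IgG1 libraries. Cd79a, Sh3bp2, Prkcd, Ptprc, Ptpn6 and Samsn1 have every IgG1 library left of every IgM library, and Cd79b, Blnk, Plcg2 and Dok3 have the reverse order.

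Among the proximal kinases, Syk was higher in IgG1 cells, the Src-family kinases Fyn, Lyn and Blk were lower, and Btk did not pass. Syk, the kinase that docks on the phosphorylated chains, stood at 34.9, 35.4, 28.3, 33.001 and 38.1 FPKM in IgM libraries and 44.6, 47.4, 38.4, 40.4 and 55.1 FPKM in IgG1 libraries. The lowest IgG1 library lay just above the highest IgM library, and the rise was 1.33-fold, from 33.9 ± 3.65 to 45.2 ± 6.56 FPKM (SD, n = 5; log2 difference 0.40, SE 0.11, adjusted p = 0.00745). With no minimum level, which brought 24060 genes into the test, the adjusted p of Syk was 0.0518.

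Lyn, which phosphorylates the receptor chains and also the inhibitory receptors that call in phosphatases, stood at 17.1, 18.2, 17.9, 14.4 and 17.7 FPKM in IgM libraries. In IgG1 libraries it stood at 14.4, 9.16, 9.32, 8.82 and 10.4 FPKM, and IgG1 replicate 1 overlapped the lowest IgM library. Lyn fell 1.64-fold (log2 difference -0.68, SE 0.14, adjusted p = 0.00114). Fyn, a Src-family kinase better known from T cells, stood at 18.6, 30.96, 31.2, 24.9 and 24.8 FPKM in IgM libraries and 4.91, 9.88, 8.12, 10.4 and 9.73 FPKM in IgG1 libraries. The classes did not overlap, and Fyn fell 3.03-fold (log2 difference -1.51, SE 0.18, adjusted p = 3.89e-06). T cell markers summed to 3.97 to 11.6 FPKM in IgM and 2.31 to 4.16 FPKM in IgG1 libraries, and their part in the level of Fyn was not tested. Blk, the Src-family kinase of the B lineage, stood at 7.11, 6.99, 12.03, 9.63 and 9.67 FPKM in IgM libraries and 4.44, 5.92, 5.14, 6.999 and 3.15 FPKM in IgG1 libraries. The highest IgG1 library reached the lowest IgM library and no further, and the fall was 1.77-fold (log2 difference -0.73, SE 0.20, adjusted p = 0.00751). Without a minimum level the adjusted p of Blk was 0.0515. Btk, the kinase that activates Plcg2 and is mutated in X-linked agammaglobulinaemia, stood at 56.8, 40.3, 48.9, 47.1 and 45.3 FPKM in IgM libraries and 42.6, 44.05, 40.6, 44.6 and 48.3 FPKM in IgG1 libraries. These overlapped (log2 difference -0.11, 95% interval -0.30 to 0.09, adjusted p = 0.394).

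Of the adaptors, Blnk was higher, Sh3bp2 was lower, and Grb2 and Bank1 did not pass. Blnk, the scaffold on which Syk, Btk and Plcg2 meet, stood at 183, 163, 169, 167 and 158 FPKM in IgM libraries. In IgG1 libraries it stood at 204, 223, 228, 233 and 255 FPKM, all above the IgM libraries. It rose 1.36-fold, from 168 ± 9.25 to 229 ± 18.4 FPKM (SD, n = 5; log2 difference 0.44, SE 0.06, adjusted p = 2.17e-05), and kept its call under all 22 alternative settings. Sh3bp2, an adaptor that binds Syk-family kinases, Vav proteins and phospholipase C gamma, stood at 16.6, 16.1, 16.6, 16.2 and 16.8 FPKM in IgM libraries and 3.299, 4.14, 2.94, 2.54 and 3.66 FPKM in IgG1 libraries. The IgM libraries lay within a narrow band, and every IgG1 library was far below it. Sh3bp2 fell 4.97-fold, from 16.5 ± 0.3002 to 3.31 ± 0.6205 FPKM (SD, n = 5; log2 difference -2.03, SE 0.15, adjusted p = 1.22e-08). Grb2, a general link to Ras, stood at 51.2 to 82.6 FPKM in IgM and 46.1 to 68.8 FPKM in IgG1 libraries (log2 difference -0.20, 95% interval -0.48 to 0.07, adjusted p = 0.232). Bank1, a scaffold that binds Lyn and calcium release channels, stood at 1.09 to 8.46 FPKM in IgM and 1.53 to 3.52 FPKM in IgG1 libraries (log2 difference -0.42, 95% interval -1.11 to 0.27, adjusted p = 0.327). Bank1 varied most among the 33 genes in IgM libraries (coefficient of variation 61.2%), and without IgM replicate 3, its lowest IgM library, the fall passed (-0.73, adjusted p = 0.0345).

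The promoter of Sh3bp2 is shown because the gene had the deepest fall among the activators. RefSeq places the first of its 2 annotated starts on the plus strand of chromosome 5 in GRCm38.p6, and the 250 bases before it, chr5:34543115-34543364, lie in an intron of Sh3bp2 and overlap no annotated exon. They are given 5′ to 3′ on the gene's strand, with the letters AGGAAGT, the core bound by ETS-family factors, in capitals.
Sh3bp2: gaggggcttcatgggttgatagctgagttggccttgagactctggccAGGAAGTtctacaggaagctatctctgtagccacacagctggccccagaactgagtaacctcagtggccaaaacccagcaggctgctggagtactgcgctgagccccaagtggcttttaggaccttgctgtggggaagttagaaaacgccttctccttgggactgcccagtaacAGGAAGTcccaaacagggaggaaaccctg
The window holds the core at 2 places, and the nearer began 29 bases before the start. These are matches of letters and say nothing on whether a factor is bound.

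Of the 4 exchange factors, which switch on small GTPases, 1 passed, at the edge of the threshold. Vav1, the main Vav protein of blood cells, stood at 30.1 to 42.6 FPKM in IgM and 29.03 to 39.1 FPKM in IgG1 libraries (log2 difference 0.06, 95% interval -0.18 to 0.30, adjusted p = 0.698). Rasgrp3, which diacylglycerol recruits to activate Ras, stood at 37.7 to 47.04 FPKM in IgM and 34.7 to 42.03 FPKM in IgG1 libraries (log2 difference -0.11, 95% interval -0.30 to 0.08, adjusted p = 0.374). The other two Vav genes were near the lower limit of the test. Vav2 stood at 1.54 to 2.47 FPKM in IgM and 1.77 to 3.73 FPKM in IgG1 libraries (log2 difference 0.28, 95% interval -0.16 to 0.72, adjusted p = 0.32). Vav3 stood at 1.49 to 4.58 FPKM in IgM and 1.03 to 1.91 FPKM in IgG1 libraries and was called lower by a narrow margin (log2 difference -0.61, SE 0.24, adjusted p = 0.0494). That call was lost in 15 of the 21 alternative settings in which Vav3 was tested, the removal of 8 of the 10 single libraries among them.

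In the phospholipase and calcium branch, Plcg2 was higher, Itpr2 and Nfatc1 were lower, and Stim1 did not pass. Plcg2, which splits a membrane lipid into the calcium-releasing messenger and diacylglycerol, stood at 53.6, 57.2, 50.4, 61.5 and 62.3 FPKM in IgM libraries and 72.3, 67.8, 80.2, 70.4 and 81.2 FPKM in IgG1 libraries. Every IgG1 library lay above every IgM library, the rise was 1.304-fold (log2 difference 0.38, SE 0.08, adjusted p = 0.00135), and the call held in all 22 alternative settings. Itpr2, a calcium channel of the endoplasmic reticulum opened by that messenger, stood at 15.3, 13.1, 22.7, 15.1 and 15.1 FPKM in IgM libraries. In IgG1 libraries it stood at 2.18, 8.32, 5.59, 5.05 and 3.04 FPKM, with wide spread in both classes but no overlap. Itpr2 fell 3.36-fold, from 16.3 ± 3.72 to 4.84 ± 2.398 FPKM (SD, n = 5; log2 difference -1.64, SE 0.25, adjusted p = 5.38e-05). Nfatc1, a transcription factor freed to enter the nucleus by calcium, stood at 12.9 to 17.3 FPKM in IgM and 5.33 to 11.8 FPKM in IgG1 libraries, without overlap (log2 difference -0.70, SE 0.17, adjusted p = 0.00371). Stim1, the sensor that opens calcium entry when stores empty, stood at 7.195 to 10.7 FPKM in IgM and 9.52 to 12.5 FPKM in IgG1 libraries (log2 difference 0.28, 95% interval -0.03 to 0.59, adjusted p = 0.144).

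**Figure D3:**
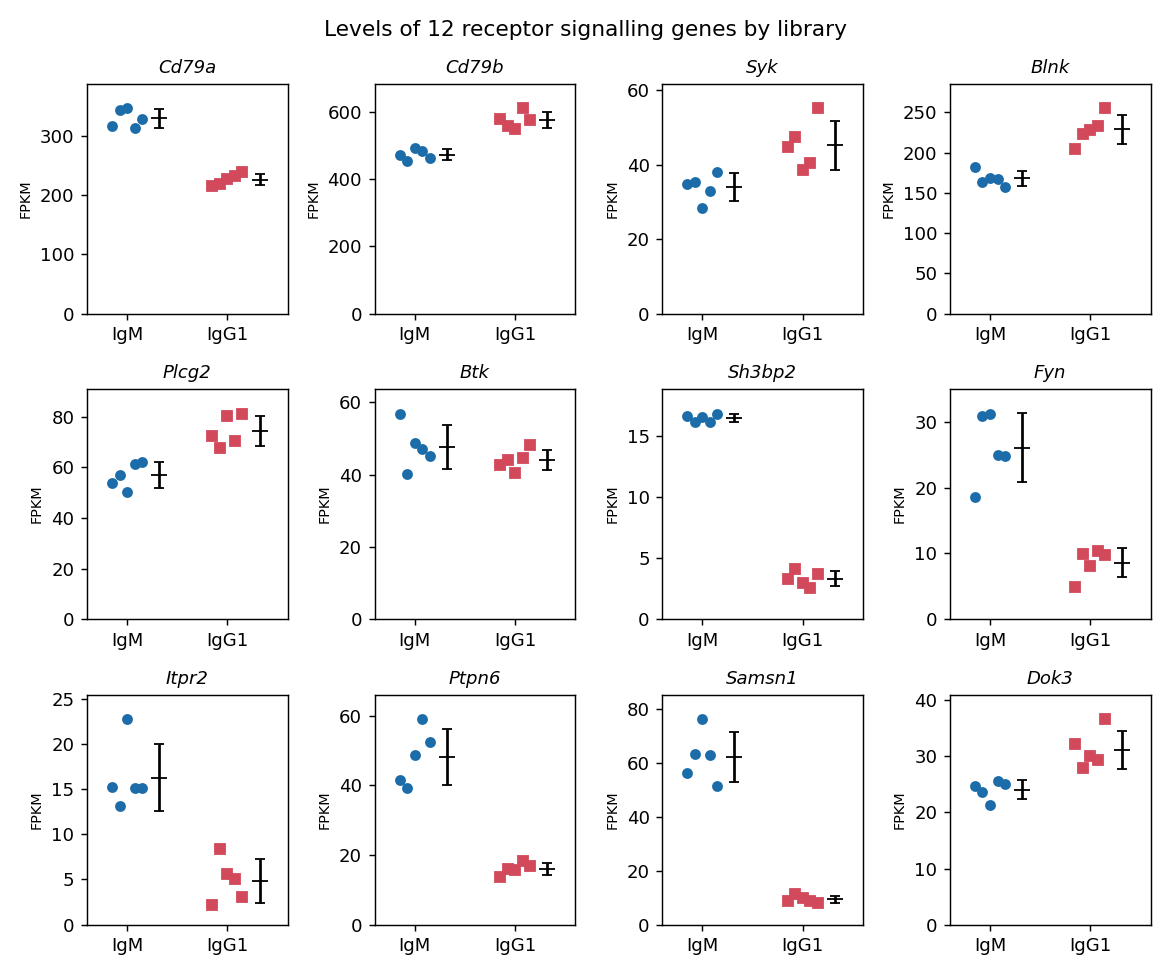
FPKM in each library for 12 receptor signalling genes (y axes start at 0; circles IgM, squares IgG1, 5 libraries each; bars are mean ± SD). The classes do not overlap in any panel but that of Btk.

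The PI3 kinase genes were lower or did not pass. Pik3r1, the regulatory subunit that recruits and steadies the catalytic subunit, stood at 14.9, 17.1, 7.44, 9.96 and 9.86 FPKM in IgM libraries and 8.32, 5.88, 5.201, 4.16 and 4.66 FPKM in IgG1 libraries. One IgG1 library lay above the lowest IgM library, and Pik3r1 fell 2.099-fold (log2 difference -0.93, SE 0.21, adjusted p = 0.00227). Pik3ap1, the adaptor that brings the kinase to the receptor, stood at 5.81 to 9.25 FPKM in IgM and 3.75 to 5.82 FPKM in IgG1 libraries (log2 difference -0.64, SE 0.17, adjusted p = 0.00689). Pik3cd, the catalytic subunit typical of lymphocytes, stood at 17.96 to 26.4 FPKM in IgM and 16.8 to 24.1 FPKM in IgG1 libraries and overlapped (log2 difference -0.13, 95% interval -0.41 to 0.15, adjusted p = 0.473).

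Among protein kinase C and the partners that lead to NF-kappaB, Prkcd, Bcl10 and Malt1 were lower and Prkcb did not pass. Prkcd, a kinase linked to B cell tolerance, stood at 80.9, 84.8, 81.04, 74.7 and 81.3 FPKM in IgM libraries and 41.1, 38.9, 39.3, 49.1 and 39.4 FPKM in IgG1 libraries. These did not overlap, and the fall was 1.94-fold (log2 difference -0.94, SE 0.08, adjusted p = 6.65e-08). Prkcb, an isoform that diacylglycerol and calcium activate, stood at 6.32 to 9.47 FPKM in IgM and 4.74 to 8.61 FPKM in IgG1 libraries (log2 difference -0.15, 95% interval -0.53 to 0.22, adjusted p = 0.52). Bcl10 and Malt1, which assemble into a complex that activates NF-kappaB, were each lower with overlapping libraries. Bcl10 stood at 27.5 to 48.3 FPKM in IgM and 20.2 to 34.1 FPKM in IgG1 libraries (log2 difference -0.61, SE 0.15, adjusted p = 0.00491), and its adjusted p was 0.0563 with no minimum level. Malt1 stood at 7.95 to 13.2 FPKM in IgM and 4.304 to 8.48 FPKM in IgG1 libraries (log2 difference -0.54, SE 0.18, adjusted p = 0.0245), and its call was lost in 7 of 22 alternative settings.

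Ptprc (CD45), the receptor phosphatase that removes the inhibitory phosphate from Src-family kinases and can also oppose them, was lower in IgG1 cells. It stood at 185, 195, 171, 180.1 and 201 FPKM in IgM libraries and 111, 99.97, 118, 121 and 119.7 FPKM in IgG1 libraries. The classes did not overlap, and the fall was 1.64-fold, from 186 ± 12.2 to 114 ± 8.63 FPKM (SD, n = 5; log2 difference -0.71, SE 0.07, adjusted p = 1.96e-07).

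Of the negative regulators, Samsn1 had the deepest fall of all 33 genes, Ptpn6 was also lower, Dok3 was higher, and Inpp5d, Csk and Cblb did not pass. Samsn1, an adaptor that restrains B cell activation, stood at 56.1, 63.4, 76.2, 63.1 and 51.5 FPKM in IgM libraries. In IgG1 libraries it stood at 8.86, 11.4, 9.93, 8.85 and 8.22 FPKM, far below any IgM library. Its gene lies on chromosome 16, 75858793 to 76022281, minus strand (GRCm38). Samsn1 fell 6.56-fold, from 62.1 ± 9.33 to 9.46 ± 1.27 FPKM (SD, n = 5; log2 difference -2.59, SE 0.12, adjusted p = 6.56e-11). Ptpn6 (SHP-1), the phosphatase that inhibitory receptors recruit, stood at 41.4, 39.3, 48.6, 58.99 and 52.4 FPKM in IgM libraries and 13.7, 15.9, 15.7, 18.3 and 16.9 FPKM in IgG1 libraries. No libraries overlapped, and Ptpn6 fell 2.99-fold, from 48.1 ± 8.05 to 16.1 ± 1.702 FPKM (SD, n = 5; log2 difference -1.51, SE 0.12, adjusted p = 2.88e-08). The library kit keeps no strand, and Ptpn6 and Lyn each share exon bases with a gene on the opposite strand, Gm20531 over 195 bases and Gm26857 over 248 bases, but both of those genes averaged at most 0.0564 FPKM.

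Dok3, an adaptor that lowers calcium signalling, stood at 24.8, 23.6, 21.3, 25.6 and 25.03 FPKM in IgM libraries and 32.1, 27.8, 30.1, 29.4 and 36.6 FPKM in IgG1 libraries. Every IgG1 library was the higher, and the rise was 1.297-fold (log2 difference 0.36, SE 0.10, adjusted p = 0.01). As for Cd79b, the rise of Dok3 did not pass once length and GC trends were removed (0.15, adjusted p = 0.285). Inpp5d (SHIP-1), the lipid phosphatase that undoes the product of PI3 kinase, stood at 27.4, 23.8, 20.3, 27.1 and 26.7 FPKM in IgM libraries and 24.4, 23.9, 22.3, 26.5 and 24.3 FPKM in IgG1 libraries (log2 difference -0.04, 95% interval -0.27 to 0.19, adjusted p = 0.814). Csk, which adds the inhibitory phosphate to Src-family kinases, stood at 24.1, 21.3, 33.8, 26.5 and 21.9 FPKM in IgM libraries and 23.6, 28.1, 21.002, 25.2 and 25.1 FPKM in IgG1 libraries (log2 difference -0.04, 95% interval -0.31 to 0.23, adjusted p = 0.845). The IgG1 libraries of Inpp5d all lay within the range of the IgM libraries, and those of Csk reached just below it. Cblb, a ubiquitin ligase that marks receptor components for removal, was the lowest of the 33 genes in IgM cells, at 1.55, 1.13, 1.899, 1.51 and 1.78 FPKM, and stood at 0.586, 0.486, 0.888, 0.655 and 1.1004 FPKM in IgG1 libraries. Its libraries did not overlap, yet the log2 difference missed the threshold (log2 difference -0.56, 95% interval -1.04 to -0.09, adjusted p = 0.0589).

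The window before the Ptpn6 start is shown as that of the negative regulator with a deep fall and a promoter almost free of exons. RefSeq places it on the minus strand of chromosome 6, and the 245 bases that overlap no annotated exon, chr6:124738715-124738959 in GRCm38.p6, read 5′ to 3′ on the gene's strand. Capitals mark the ETS core, which is on the opposite strand here and reads ACTTCCT, and the E-box CAGGTG.
Ptpn6: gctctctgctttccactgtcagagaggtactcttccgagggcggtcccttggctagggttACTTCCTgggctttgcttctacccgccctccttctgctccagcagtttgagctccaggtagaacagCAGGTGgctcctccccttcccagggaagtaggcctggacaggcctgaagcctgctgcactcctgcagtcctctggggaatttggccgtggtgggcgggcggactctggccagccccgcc
The ETS match began 190 bases before the start.

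Syk, which was higher, and Ptpn6, which was lower, changed their order in level. The ratio of Syk to Ptpn6 within each library was 0.841, 0.902, 0.583, 0.559 and 0.728 in IgM libraries and 3.26, 2.98, 2.44, 2.204 and 3.26 in IgG1 libraries. The means were 0.723 ± 0.152 and 2.83 ± 0.483 (SD, n = 5), so that Syk was below Ptpn6 in all 5 IgM libraries and above it in all 5 IgG1 libraries. For the lipid step the ratio of Pik3cd to Inpp5d was 0.655 to 1.25 in IgM and 0.632 to 0.991 in IgG1 libraries, which overlapped. These ratios restate levels given above and were not tested.

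**Figure D4:**
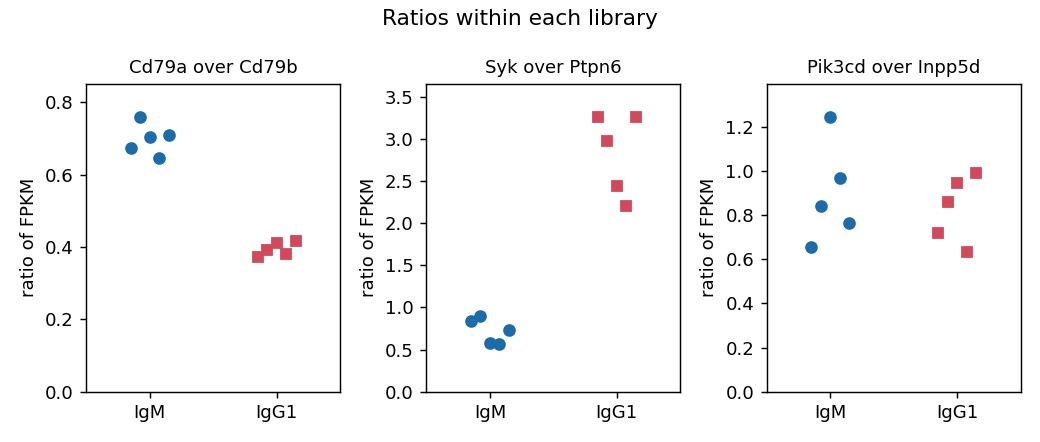
Ratio of FPKM within each library for Cd79a over Cd79b, Syk over Ptpn6 and Pik3cd over Inpp5d (y axes start at 0; 5 IgM libraries as circles, 5 IgG1 libraries as squares). The first ratio is lower and the second higher in every IgG1 library, and the third overlaps.

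The order of the levels was similar at the top in both classes. In IgM cells the genes ran from Cd79b (472 FPKM) through Cd79a, Ptprc (186 FPKM) and Blnk (168 FPKM) down to Cblb (1.57 FPKM). In IgG1 cells Blnk (229 FPKM) drew level with Cd79a (226 FPKM), and these neighbours differed by less than their spread. The median level of the 33 genes was 25.1 FPKM in IgM libraries and 16.1 FPKM in IgG1 libraries, and 25 of them averaged above 10 FPKM in IgM cells against 19 in IgG1 cells. The coefficient of variation between libraries had a median of 15.3% in IgM and 14.6% in IgG1 cells. The 5 genes that were higher had means of 24.1 to 472 FPKM in IgM cells, and the 16 that were lower had means of 2.73 to 329 FPKM.

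Some motif letters, which the choice of genes did not use, were more frequent in the promoters of the set than over all genes, and others were not. RefSeq promoter entries (GRCm38.p6) were at hand for 28 of the 33 genes, and 4 motifs were searched on both strands of the 250 bases before each start. A gene counted if the window of any of its starts matched, so the share of genes, not of windows, is the like comparison. All genes with an entry were used, whether or not these cells express them. The ETS core AGGAAGT was in the window of 12 of 28 genes (42.9%), against 8.80% of 27025 genes with an entry and 7.69% of all windows. The E-box CAGGTG was in 11 of 28 (39.3%), against 19.4% of genes and 17.2% of windows. The first 7 bases of the octamer, ATGCAAA, were in 3 of 28 (10.7%), against 4.65% of genes and 4.13% of windows. These 3 were Blnk, Pik3cd and Prkcb, and the full octamer was not searched. The AP-1 motif TGANTCA was in 1 of 28 (3.57%; Vav3), against 7.82% of genes and 6.75% of windows. No motif contains another. The share of genes with the ETS core did not follow the calls in an evident way: 6 of 12 lower genes, 1 of 4 higher genes and 5 of 12 genes that did not pass held it.

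The 12 ETS matches are shown with the bases around them, 5′ to 3′ on the gene's strand and with their place in GRCm38.p6, so that the variation outside the capitals can be seen. Where several matches lay in a window, the one shown is that nearest the start, and the stretch of Vav2 begins at the edge of its window. Among these genes, exon cover was checked only for Blnk, Cd79a, Samsn1, Ptpn6 and Sh3bp2. Annotated exons of the genes themselves cover 250 bases of the Blnk window, 116 of the Cd79a window and 44 of the Samsn1 window. They cover 5 bases of the Ptpn6 window and 0 of the Sh3bp2 window. The matches shown for Blnk, Cd79a and Samsn1 lie inside annotated exons, and these genes are counted among the 12. The other windows were not checked, and the stretch of Vav1 runs past its gene's annotated start at 57279100. The genes that were lower are given first.
Cd79a (chr7:24897432-24897458, plus strand): acggctgaacAGGAAGTgaggcggagt
Sh3bp2 (chr5:34543326-34543352, plus strand): gcccagtaacAGGAAGTcccaaacagg
Ptpn6 (chr6:124738883-124738909, minus strand): ggctagggttACTTCCTgggctttgct
Ptprc (chr1:138175347-138175373, minus strand): tttttttttaACTTCCTgcaaagagga
Samsn1 (chr16:75909280-75909306, minus strand): cacatcagacACTTCCTcagtgctatc
Vav3 (chr3:109340472-109340498, plus strand): gttcagccacACTTCCTaggaagccgc
Blnk was higher, and the remaining genes did not pass.
Blnk (chr19:40994407-40994433, minus strand): tgggacaaacAGGAAGTagtgctcagt
Grb2 (chr11:115699573-115699599, minus strand): gggaaggaagAGGAAGTgtattctggc
Inpp5d (chr1:87620283-87620309, plus strand): ttctataatgAGGAAGTtctgtgcagc
Rasgrp3 (chr17:75435846-75435872, plus strand): aaagaataggAGGAAGTgggcctgcca
Vav1 (chr17:57279080-57279106, plus strand): gtcacagaagAGGAAGTggtgttgtag
Vav2 (chr2:27427841-27427858, minus strand): gACTTCCTgcagagagag
The core reads AGGAAGT on the gene's strand in Cd79a, Sh3bp2, Blnk, Grb2, Inpp5d, Rasgrp3 and Vav1, and ACTTCCT, its reverse complement, in Ptpn6, Ptprc, Samsn1, Vav2 and Vav3. The match of Vav1 began 10 bases before the start, that of Inpp5d 19 and that of Blnk 202. A match is a description of the letters, and a window without one says nothing about the factor.

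A wider list of 93 other genes of the same pathway, from co-receptors to Ras and calcineurin, was read alongside. Of these, 92 were in the annotation and 77 reached the minimum level. In IgG1 cells 26 of 77 were lower (33.8%), 9 were higher (11.7%) and 42 did not pass, against 20.2% lower and 18.1% higher among all genes, with a median log2 difference of -0.23. Tec, a kinase of the same family as Btk, was lower (27.6 ± 2.49 against 14.9 ± 2.16 FPKM, mean ± SD, n = 5; log2 difference -0.86, adjusted p = 1.84e-05). Rasal3, a Ras-inactivating protein of blood cells (44.4 ± 4.11 against 27.2 ± 1.38 FPKM; log2 difference -0.68, adjusted p = 1.20e-05), and Dgkd, which removes diacylglycerol (65.3 ± 4.93 against 40.6 ± 5.63 FPKM; log2 difference -0.68, adjusted p = 2.19e-05), were lower too. The largest rise among genes named by the rule was in Rasgrp2, a calcium- and diacylglycerol-driven activator of Rap GTPases (7.93 ± 2.63 against 21.003 ± 4.12 FPKM; log2 difference 1.34, adjusted p = 6.42e-05). Map2k2 (74.2 ± 6.68 against 97.4 ± 7.604 FPKM; log2 difference 0.39, adjusted p = 6.44e-04), Rac2 (72.7 ± 2.59 against 86.4 ± 3.27 FPKM; log2 difference 0.24, adjusted p = 0.00543) and Siglecg, an inhibitory receptor of B cells (11.8 ± 0.843 against 18.2 ± 2.43 FPKM; log2 difference 0.58, adjusted p = 0.00146), were also higher. Of the genes that did not pass, the highest were Cd81 (309 ± 17.7 against 299.8 ± 18.8 FPKM; log2 difference -0.05, adjusted p = 0.549), Rac1 (168 ± 7.19 against 179.98 ± 11.1 FPKM; log2 difference 0.10, adjusted p = 0.197) and Rhoa (109 ± 5.41 against 100.3 ± 10.3 FPKM; log2 difference -0.12, adjusted p = 0.214).

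The 33 differences were computed again under 22 other settings (other offsets, minimum levels, scalings and spread models, length and GC trends removed, and each library left out). The calls of 14 of the 21 genes held in every one: Blnk and Plcg2 were higher, and Cd79a, Fyn, Itpr2, Lyn, Nfatc1, Pik3ap1, Pik3r1, Prkcd, Ptpn6, Ptprc, Samsn1 and Sh3bp2 were lower. Under quantile normalization the median of all genes moved up by 0.11 on the log2 scale and 59.1% of all calls were higher in IgG1 cells, against 47.2% in the main analysis, and 14 of the 33 genes were lower and 6 higher.

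**Figure D5:**
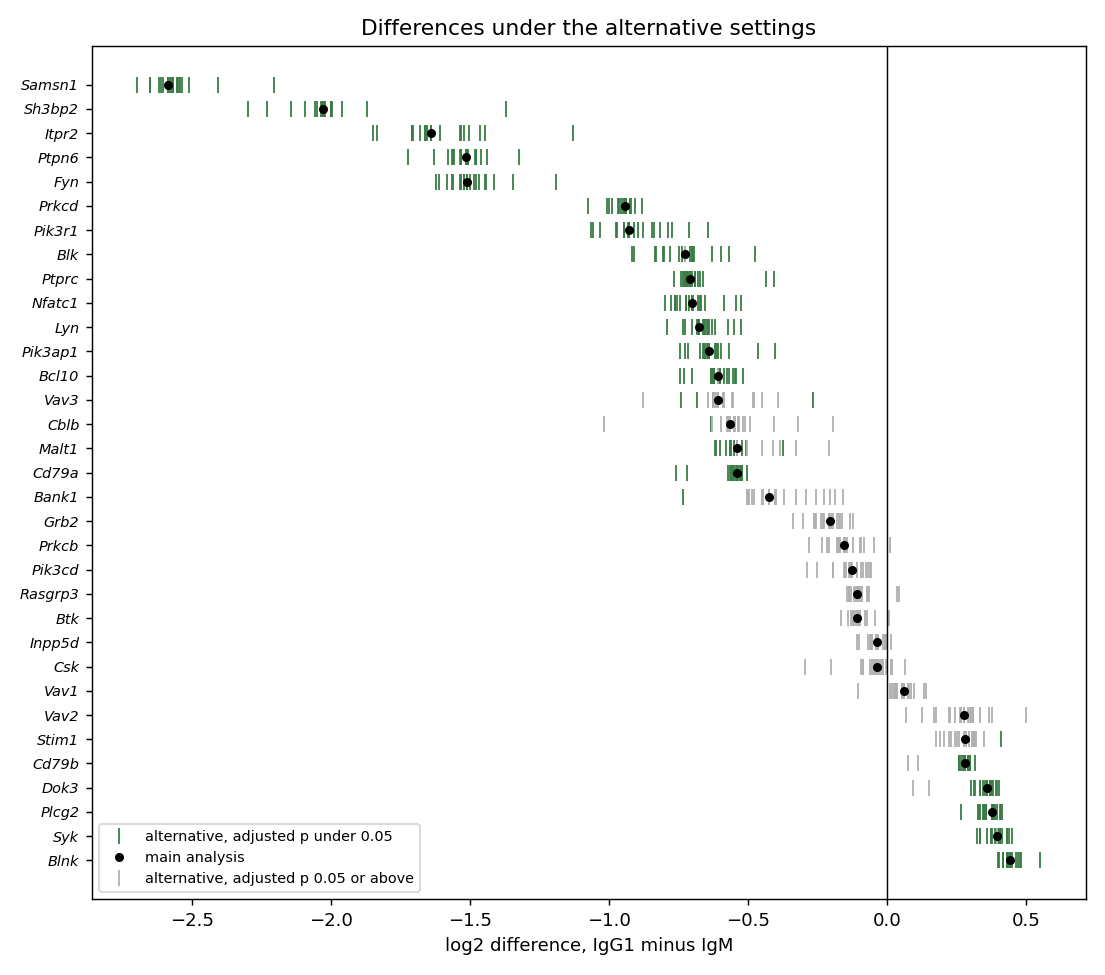
Log2 difference, IgG1 minus IgM (x axis), of the 33 genes in the main analysis (dots) and under the alternative settings (ticks; green where the adjusted p was under 0.05, grey where it was not). The ticks of Samsn1 run from -2.70 to -2.21 and those of Sh3bp2 from -2.30 to -1.37. Among the genes called in the main analysis, Bcl10, Blk, Cd79b, Dok3, Malt1, Syk and Vav3 have grey ticks in at least 1 setting.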

How the data were processed

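RNA of sorted plasma cells (miRNeasy Micro kit) went into a SMART-Seq library kit (mRNA HT LP, Takara), which does not keep strand, per the labels' protocols. The deposited values are FPKM per Ensembl gene, 1 file per library; per the submitters' processing notes HISAT2 2.1.0, Cufflinks 2.2.1, Cuffdiff and GRCm38 were used, with settings and annotation release not given in the sources used here. Gene names came from GENCODE M21 (47305 of 47719 identifiers matched). No 2 libraries held identical values.

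Log2(FPKM + 1) was compared with limma 3.58.1 in R 4.3.3 (trend and robust options, group as the only term, two-sided, Benjamini-Hochberg adjustment, threshold 0.05) over the 9900 genes that averaged 1 FPKM or more across the 10 libraries. Fold changes are ratios of mean FPKM; log2 differences understate changes of low genes. Fragment counts were estimated from whole-fragment steps of the FPKM of genes with 1 transcript (200 bases assumed, tolerance 0.02) and served only as depth; a shorter or longer assumed length puts the deepest library at 37120000 or 41890000. Tested on simulated data for IgG1 against IgM with 9900 genes, the fit found 38% of 1.5-fold changes, 86% of 2-fold, 96% of 3-fold and 98% of 4-fold changes, and made 7 false calls. In that simulation 50 genes were changed at each fold, far fewer in all than the 38.3% of genes that passed in the data. The adjustment was thus stricter there, and these shares do not carry over directly.

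Values are given per library for the receptor chains, Syk, Btk, Lyn, Blnk, Ptprc, the negative regulators and up to 8 passing genes per direction; from the wider list, the 5 passing genes per direction with the smallest adjusted p and groups that do not overlap, and the 3 highest that did not pass, are named, except that some genes are not reported here. The 33 genes, the lists and the roles were chosen with earlier results of these data known. Alternatives covered offset, minimum level, scaling, spread model, replicate block, length and GC trends, and leaving out each library; the trend of the longest transcript was added after seeing the data. Figures were drawn with Python 3.11.15 and matplotlib 3.10.9. Promoter letters are from RefSeq (GRCm38.p6).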

Additional observations from a re-analysis of the deposited data

Results flagged for a closer look

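In each class of 5 libraries, the highest or lowest value of each of the 33 genes was flagged where its gap to the next value was over 0.71 of the whole range (Dixon's 95% limit for 5). Of 66 sets of values 3 were flagged, where chance alone flags about 1 in 20. Lyn stood at 14.4 FPKM in IgG1 replicate 1, with the next library at 10.4 and the lowest at 8.82 FPKM. Itpr2 stood at 22.7 FPKM in IgM replicate 3, with the next at 15.3 and the lowest at 13.1 FPKM. Prkcd stood at 49.1 FPKM in IgG1 replicate 4, with the next at 41.1 and the lowest at 38.9 FPKM. The calls of Lyn, Itpr2 and Prkcd also held without each library in turn.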

How the results depend on the processing

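Of the 21 calls among the 33 genes, 14 held in all 22 alternatives, with 3 to 6 genes higher and 13 to 17 lower. With no minimum level, which tests 24060 genes, 7 activators were lower against 11, since Bcl10, Blk, Malt1 and Vav3 no longer passed, and Syk did not pass either. With length and GC trends removed, by the median transcript or by the longest (the latter chosen after seeing the data), 3 of the 33 genes were higher against 5 and 0 negative regulators against 1, since Cd79b (adjusted p = 0.071 and 0.195) and Dok3 (0.285 and 0.539) did not pass; the cause was not tested.

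Log2 differences that changed sign were all of genes that did not pass. Under quantile normalization Csk was 0.0174, Inpp5d 0.0158 and Prkcb 0.0106. With the trends removed Btk was 0.0059 and Rasgrp3 0.0447 by the median transcript, and Rasgrp3 was 0.0367 and Vav1 -0.1059 by the longest. Leaving out 1 library at a time, Csk ran from -0.0951 to 0.0661, with 0.0661 without IgM replicate 3 and 0.0161 without IgG1 replicate 3.

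Leaving out each library in turn gave 5 genes higher and 14 to 17 lower, 4 activators higher and 9 to 11 lower, 1 negative regulator higher and 2 to 3 lower, 3 to 4 genes of both roles lower, and, over all genes, 1633 to 1715 higher and 1785 to 1917 lower. Malt1 was lost without IgM replicate 3 or 4 or IgG1 replicate 1. Some settings added calls: Cblb passed with no minimum level (adjusted p = 0.0493), with the plain spread model (0.0048) and without IgG1 replicate 5 (0.0475), Stim1 under quantile normalization (0.0363), and Bank1 without IgM replicate 3 (0.0345).

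Correlations between the deviations of same-numbered IgM and IgG1 libraries were low (-0.0357 to 0.0966), though 3 of 5 IgM libraries were closest to their own number. Whether the numbers are pairs is thus not settled, and the main analysis did not take them as pairs. With the replicate number as a block 5 of the 33 genes were higher and 15 lower, and 1749 and 1952 of all genes; Vav3 alone among the 33 lost its call (adjusted p = 0.0576). Estimated depth was 26790000 to 31100000 fragments in IgM and 26270000 to 37730000 in IgG1 libraries, and 4 of the 5 IgG1 libraries were deeper than every IgM library. Even so, every IgG1 library held fewer genes above 0 (13286 to 13961) than every IgM library (15121 to 15800). The part of this in the differences was not tested. Of the folds simulated, 1.5-fold was recovered least, and smaller changes were not simulated.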
